A study of Saccharomyces cerevisiae with 24 samples.

Results

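Ageing hst3 hst4 mother cells of budding yeast were compared with the same strain in log phase, over 4 of the 24 libraries of the series: 2 libraries of log-phase cells and 2 of aged cells. The libraries were chosen by their titles. All were poly(A)+ RNA-seq libraries from Saccharomyces cerevisiae diploids that carry the mother enrichment programme and were grown in YPD with glucose. In this programme an estradiol-activated Cre recombinase, made from the daughter-specific SCW11 promoter, disables UBC9 and CDC20 in daughters, so that biotin-labelled mothers can age and be purified. Aged cultures were biotin-labelled and received β-estradiol, whereas the log-phase cells were taken from the starting culture. Age thus goes together with labelling, β-estradiol and culture time, and their parts cannot be told apart. Ageing change below means aged minus log. A log-phase and an aged library of the wild-type programme strain (WT) share the table and serve for comparison. The titles give 48 h and the age label gives 24 h for the old cells, which are therefore called aged. The genotype label reads wild type for every library of the table, and the titles were followed.

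Hst3 and Hst4 are NAD-dependent deacetylases of the sirtuin family. They remove the acetyl group that Rtt109, with the histone chaperone Asf1, places on lysine 56 of new histone H3 during replication. Cells without both enzymes keep this mark through the cell cycle and are known for spontaneous DNA damage and sensitivity to replication stress. Mother cells of budding yeast divide a limited number of times, and circles excised from the ribosomal DNA (rDNA) are known to collect in them.

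The mutated genes were looked at first. HST3 (chromosome XV, 378219 to 379562, build R64) had 3 and 2 reads in the log libraries and 6 and 10 in the aged libraries, against 278 and 319 in log and aged WT. For HST4 (chromosome IV, 842337 to 843449) both log libraries held 0 reads and both aged ones 1 read, against 90 and 87 in WT. Both genes were thus close to absent in all 4 hst3 hst4 libraries, as their titles say. From 5 to 16 reads, the aged to log ratio of HST3 was 2.38, with a 95% interval of 0.832 to 8.29 that covers counting error only.

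The log libraries held 6381459 and 3964134 recovered reads, the aged libraries 5774455 and 5972242, and log and aged WT 8557984 and 5630328. Log2 levels correlated at 0.981 between the log libraries and at 0.99 between the aged libraries, across genes. Replicate 1 of each group came from the same sequencing lane as both WT libraries, and replicate 2 of each group from another lane. The column names of both WT libraries carry a batch label, and those of the hst3 hst4 libraries carry none. What this batch was is not stated. The labels do not say whether replicates were separate cultures. The p-values therefore refer to the spread among these libraries alone, which may be technical. In bulk RNA, a smaller share of cells of a type and less RNA per cell cannot be told apart.

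Gene length and base composition moved with the comparison. Among the 4959 genes above the 25th percentile of levels, put into 5 equal groups by length, the median change was -0.31 in the group of the shortest genes and 0.25 in that of the longest, on the log2 scale. By GC content it was -0.20 in the lowest group and 0.34 in the highest. In WT the same medians were 0.04 and -0.09 for length, and -0.07 and 0.02 for GC. Log replicate 2 departed from log replicate 1 in the opposite direction, by 0.12 for the shortest and -0.17 for the longest genes. A correction for both properties, chosen after the data were seen, brought the medians of these groups to between -0.10 and 0.06. Its values are given for most results where they end or add a call or move a value by over 1.5 times.

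**Figure D1:**
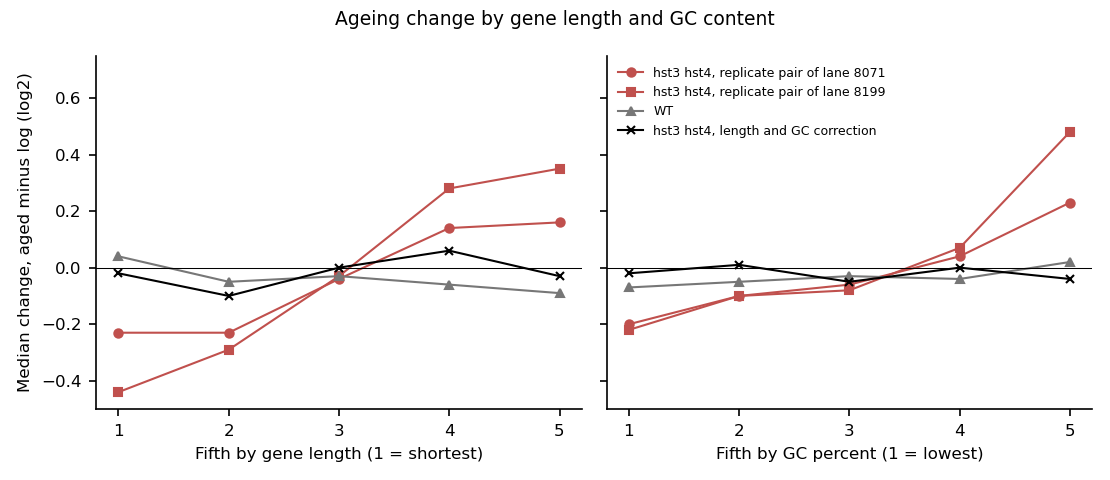
Median ageing change (log2, aged minus log) of genes in 5 equal groups by length (left) and by GC percent (right), for each replicate pair of hst3 hst4, for WT and after the length and GC correction. The medians of both hst3 hst4 pairs are higher on the right than on the left, up to 0.35 for the longest and 0.48 for the most GC-rich genes in the lane of replicate 2, while those of WT stay between -0.09 and 0.04.

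A large part of the transcriptome differed between aged and log-phase hst3 hst4 cells. Of 6613 features tested, 1894 (28.6 percent) rose and 1558 (23.6 percent) fell in aged cells, at an adjusted p under 0.05 in limma with Benjamini-Hochberg adjustment. All 3452 called features had the same direction in both lanes, but the lane changes use the same libraries as the calls. Opposite directions would give a spread too large for a call, so this count is no separate check. Among the called features, 1125 rose and 468 fell by more than 1 on the log2 scale. Every list below is read against the shares of 28.6 percent and 23.6 percent, and the median change of all features was 0.11. Quantile normalization moved that median to -0.10 and turned the split of calls to 1485 higher and 1912 lower. Fewer genes were called without 1 aged library: 790 rose and 673 fell without aged replicate 1, and 793 and 651 without aged replicate 2.

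**Figure D2:**
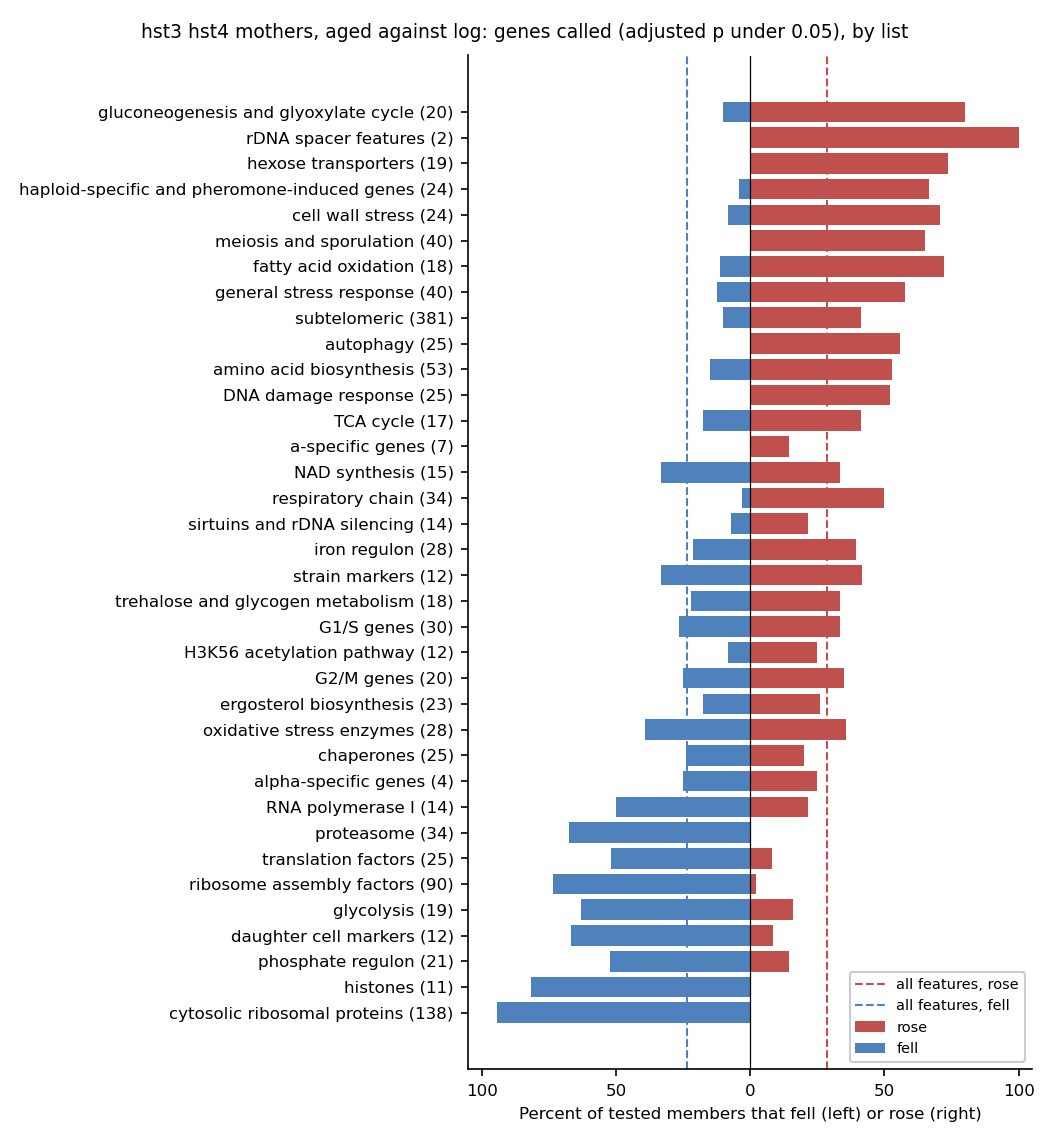
Percent of the tested members of each gene list that rose (red, right) or fell (blue, left) in aged against log-phase hst3 hst4 cells. The number tested is in brackets, and the lists are ordered by median change. Dashed lines mark the shares over all features, 28.6 percent rising and 23.6 percent falling, and 130 of 138 cytosolic ribosomal protein genes fell.

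The largest rise among well-expressed genes was that of HUG1, a small protein induced by DNA damage that restrains ribonucleotide reductase. HUG1 (chromosome XIII, 158760 to 158966) had log2 levels of 8.16 and 8.73 in the log libraries and 12.65 and 12.57 in the aged libraries. That is a rise of 4.16 ± 0.21 (SE) on the log2 scale, or 17.9-fold, with an adjusted p of 0.00114. The WT levels were 3.61 in log and 7.26 in aged cells, so log-phase hst3 hst4 cells were already above aged WT. RNR3, the damage-inducible large subunit of ribonucleotide reductase, had levels of 6.98 and 6.12 in log and 9.69 and 9.78 in aged cells. Its rise of 3.19 ± 0.30 (9.11-fold, adjusted p = 0.00181) compares with a change of 1.12 in WT. The small subunit genes moved less: RNR4 rose 3.96-fold and RNR2 2.44-fold. RNR1, the housekeeping large subunit, changed by 0.36 ± 0.21 and was not called.

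Of the 25 genes of the DNA damage response list, 13 rose and 0 fell, with a median of 0.52 against 0.11 over all features. Repair and checkpoint targets among them were RAD16, of nucleotide excision repair, which went from 8.47 and 7.58 to 10.04 and 10.19. It rose by 2.09 ± 0.30 (adjusted p = 0.00462). PLM2, a putative transcription factor that responds to damage, rose by 2.06 ± 0.22 (adjusted p = 0.00223). The recombination genes RAD52, RAD54 and RAD59 rose as well, RAD54 by 0.92 ± 0.14. After correction for length and GC, RAD54 changed by 0.41, and RAD52 was not called (adjusted p = 0.276). The checkpoint kinase gene DUN1 changed by 0.34 ± 0.12 and missed the threshold with an adjusted p of 0.0632, against 0.0175 with the length and GC correction. With aged replicate 1 left out the list held 8 rising genes, and without aged replicate 2 it held 7. Corrected for length and GC, 13 members rose and 3 fell. Under quantile normalization 10 rose and 0 fell, with a median of 0.30.

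Core histone genes fell. HTB2 and HTA2, a divergent pair for histones H2B and H2A, went from 11.65 and 11.84 to 9.09 and 9.02 and from 11.88 and 11.89 to 9.64 and 9.54. HTB2 changed by -2.70 ± 0.11 (adjusted p = 0.00114) and HTA2 by -2.29 ± 0.10 on the log2 scale. The other H2A and H2B pair moved less, with HTA1 at -1.30 ± 0.12 and HTB1 at -1.25 ± 0.13. The H4 genes HHF2* and HHF1* changed by -1.89 and -1.51, and the H3 genes HHT2* and HHT1* by -1.14 and -1.05. HTZ1, for the variant H2A.Z, fell by 1.05 ± 0.13. An asterisk marks a gene that shares reads with a near-identical copy or overlaps another gene, so its value is uncertain. In all, 9 of 11 histone genes fell, with a median of -1.25, and 9 fell without either aged library. With the length and GC correction 9 fell as well, but the median was -0.81, with HTB1 at -0.81, HHT2* at -0.73 and HTZ1 at -0.68. Their share of reads went from 0.505 and 0.561 percent to 0.226 and 0.230 percent. The exceptions were CSE4, for centromeric H3, at 0.04 ± 0.13, and HHO1, for the linker histone, at 1.10 ± 0.45 (adjusted p = 0.0928). CSE4 was called with the length and GC correction, at 0.42 (adjusted p = 0.0278), and HHO1 with the replicate block (0.00699). HHO1 had only 74 reads in log replicate 2 against 304 in log replicate 1, and without log replicate 1 or 2 its change was 1.80 or 0.40 and called.

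**Figure D3:**
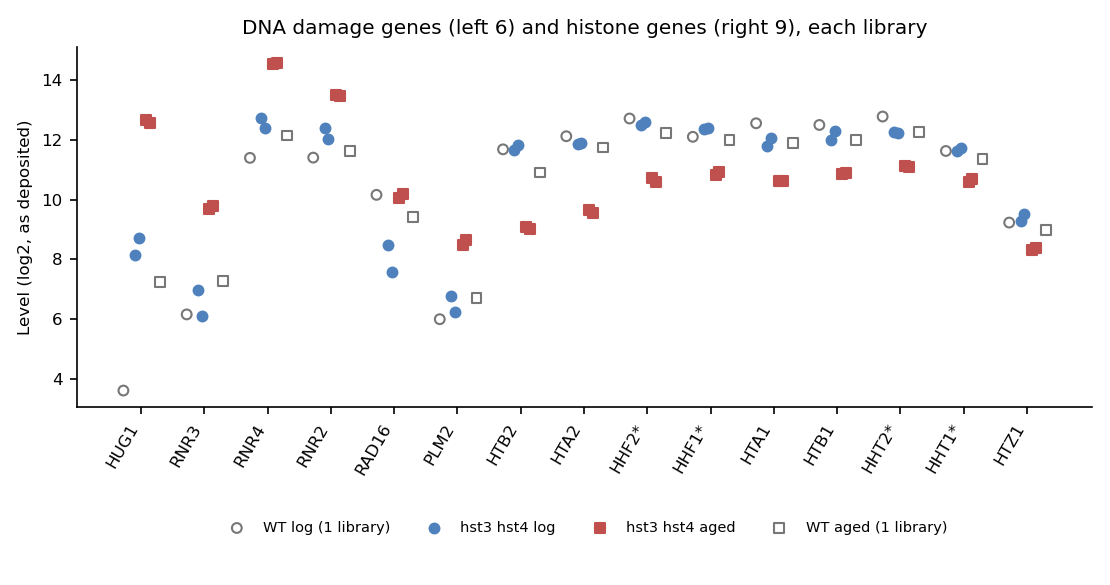
Log2 level of 6 DNA damage genes and 9 histone genes in each library (filled circles, hst3 hst4 log; filled squares, hst3 hst4 aged; open symbols, WT with 1 library per group). Aged hst3 hst4 libraries lie above their log libraries for all 6 damage genes, with HUG1 at 12.65 and 12.57, and below them for all 9 histone genes shown.

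Genes that place, guard or remove H3K56 acetylation had a median change of 0.03, against 0.11 over all features. Of 12 tested, 3 rose, which is near the share of all features, and 1 fell. Without either aged library 0 were called. Under quantile normalization 1 rose and 3 fell. RTT109, the acetyltransferase, had levels of 7.68 and 7.57 in log and 7.50 and 7.47 in aged cells and changed by -0.15 ± 0.14, but by -0.49 under quantile normalization (adjusted p = 0.0403). ASF1 changed by 0.35 ± 0.12, with an adjusted p of 0.0524, against 0.0222 with the length and GC correction. MMS22, of the Rtt101 ubiquitin ligase that acts downstream of the mark, rose by 0.56 ± 0.11. With the length and GC correction MMS22 was at 0.35, and it was not called when the replicate block was added (adjusted p = 0.0577). CTF18, of an alternative clamp loader, rose by 0.41 ± 0.13, a call lost with the replicate block (adjusted p = 0.0752), under quantile normalization (0.103) and under median centring (0.133). VPS75, the other chaperone of Rtt109, fell by 0.51 ± 0.12. RTT101, MMS1, CTF4, CTF8 and DCC1 were not called, with changes from -0.41 to 0.32, while CTF8 was at -1.12 under quantile normalization (adjusted p = 0.00811). The third call was HST3 itself, on the few reads given above, and it was lost under quantile normalization (adjusted p = 0.634) and with the length and GC correction (0.0759).

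The remaining sirtuins showed 1 large change. HST2, the cytoplasmic sirtuin, went from 8.45 and 6.97 to 10.12 and 10.22, a rise of 2.46 ± 0.47 (5.50-fold, adjusted p = 0.0107). Its log libraries lay far apart, and WT held 9.92 and 9.95, so the log-phase mutant was the low group. SIR2, which silences rDNA and telomeres, had 8.02 and 7.57 in log and 8.32 and 8.27 in aged cells and changed by 0.50 ± 0.18 without a call. HST1 changed by 0.54 ± 0.20 and NET1, the nucleolar anchor of Sir2, by 0.74 ± 0.27, and neither was called. Both were called with the replicate block, at adjusted p of 0.0443 and 0.0163. After correction for length and GC, HST1 was called at 0.70 (adjusted p = 0.0268), whereas NET1 was at -0.03. Under quantile normalization NET1 was called at 0.82 (adjusted p = 0.038). SIR4 rose by 0.53 ± 0.11, but was at 0.32 and not called with the length and GC correction and the replicate block (adjusted p = 0.0783). SIR3 rose by 0.42 ± 0.11, which was not called with the replicate block (adjusted p = 0.0567), under quantile normalization (0.0515) or under median centring (0.145). FOB1, the rDNA fork barrier protein, fell by 0.48 ± 0.13. Of the 14 genes of this list 3 rose and 1 fell, and without aged replicate 1 or 2 the call of HST2 was the one that stayed. CDC14, TOF1, TOF2, CSM1, LRS4, UAF30 and RRN3 were not called, with changes from -0.41 to 0.37. Corrected for length and GC, LRS4 was called at 0.70 (adjusted p = 0.0353) and CDC14 at -0.35 (0.0361), and the list held 5 rises and 2 falls. UAF30 was called at -0.94 under quantile normalization (adjusted p = 0.0124) and at -0.56 under median centring (0.0495).

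Transcripts of the rDNA spacers were high in log phase and rose further. The antisense feature IGS2-1AS (chromosome XII, 457733 to 459675) had levels of 15.12 and 15.28 in log and 16.75 and 16.65 in aged cells, a rise of 1.5 ± 0.17 (2.83-fold, adjusted p = 0.0025). IGS1-2AS (chromosome XII, 459797 to 460922) went from 11.14 and 9.90 to 12.15 and 11.89. Its rise of 1.5 ± 0.41 had an adjusted p of 0.0293, but 0.0865 without aged replicate 1 and 0.0587 without aged replicate 2. In WT the 2 features went from 10.54 to 17.40 and from 4.82 to 11.51, so aged cells of both strains were nearer to each other than log cells. Of all reads, 0.545 and 0.607 percent fell on the spacers in log and 1.97 and 1.86 percent in aged hst3 hst4 cells. The difference of the ageing change from that of WT was -5.36 ± 0.29 for IGS2-1AS and -5.19 ± 0.70 for IGS1-2AS.

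Ribosomal protein genes fell almost without exception. Of 138 tested, 130 fell and 0 rose, with a median change of -1.31, against -1.18 and -1.41 within the lanes of replicate 1 and 2. RPL40B, which encodes a ubiquitin fusion of a large-subunit protein, went from 13.11 and 13.31 to 11.14 and 11.12 and fell by 2.08 ± 0.12 (adjusted p = 0.00114). RPS26B changed by -2.02 ± 0.12, RPS18B by -1.73 ± 0.14 and RPL9A* by -2.22 ± 0.12. The list took 19.8 and 21.5 percent of reads in log and 10.8 and 10.3 percent in aged cells, against 18.4 and 16.9 percent in log and aged WT. When aged replicate 1 was omitted, there were 116 falling genes, and without aged replicate 2 there were 108. Under quantile normalization 116 fell and 2 rose, with a median of -0.72.

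Ribosome assembly factors, the nucleolar proteins that process rRNA and build the subunits, fell with them. Of 90 tested, 66 fell and 2 rose (NOC4 and BUD20), with a median of -0.72. MAK16, of the large-subunit precursor, had levels of 11.50 and 11.60 in log and 10.11 and 10.12 in aged cells and fell by 1.44 ± 0.10 (adjusted p = 0.00147). UTP8, of the small-subunit processome, changed by -1.41 ± 0.10, GAR1 by -1.30 and TIF6 by -1.29. In WT, MAK16 changed by 0.01 and UTP8 by -0.08. Without aged replicate 1 the count of falls was 38, and without aged replicate 2 it was 43. Of 14 genes of RNA polymerase I and its initiation factors 7 fell and 3 rose, led by RPA49 at -1.18 ± 0.10, and 5 fell and 0 rose without either aged library. Of 25 translation factors 13 fell and 2 rose, among them the initiation factor subunits GCD11 at -1.49 ± 0.11 and TIF35 at -1.47 ± 0.10, while 7 and 6 fell without aged replicate 1 and 2. With the replicate block 1 translation factor rose, and under quantile normalization their median of -0.62 was -0.26.

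Promoters of the assembly factor MAK16 and of 3 general stress genes with large rises are shown because both gene groups are known for shared upstream motifs. Each sequence is 250 bases of the reference (RefSeq R64), written in the direction of the gene and ending 50 bases before its start codon. Capitals mark the motifs PAC (GATGAG) and RRPE (AAAAATTT) in the MAK16 promoter, and STRE (AGGGG), the site of Msn2 and Msn4, in the stress promoters, on either strand.
MAK16 (chrI:101196-101445, minus strand): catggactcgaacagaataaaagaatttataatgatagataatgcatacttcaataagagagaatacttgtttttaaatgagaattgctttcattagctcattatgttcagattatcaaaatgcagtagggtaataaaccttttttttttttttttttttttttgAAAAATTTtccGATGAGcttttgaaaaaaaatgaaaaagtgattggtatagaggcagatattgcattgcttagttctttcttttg
DDR2 (chrXV:231806-232055, minus strand): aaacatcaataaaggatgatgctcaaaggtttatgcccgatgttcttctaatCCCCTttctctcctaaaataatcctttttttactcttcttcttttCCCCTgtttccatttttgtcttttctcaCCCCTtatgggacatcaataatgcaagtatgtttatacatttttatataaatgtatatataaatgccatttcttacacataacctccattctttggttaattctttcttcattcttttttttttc
XBP1 (chrIX:177301-177550, minus strand): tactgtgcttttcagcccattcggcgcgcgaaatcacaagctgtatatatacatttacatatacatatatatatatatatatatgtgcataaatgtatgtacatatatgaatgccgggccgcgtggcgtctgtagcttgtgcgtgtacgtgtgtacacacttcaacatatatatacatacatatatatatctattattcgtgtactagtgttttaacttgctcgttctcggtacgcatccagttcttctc
GRE1 (chrXVI:129189-129438, minus strand): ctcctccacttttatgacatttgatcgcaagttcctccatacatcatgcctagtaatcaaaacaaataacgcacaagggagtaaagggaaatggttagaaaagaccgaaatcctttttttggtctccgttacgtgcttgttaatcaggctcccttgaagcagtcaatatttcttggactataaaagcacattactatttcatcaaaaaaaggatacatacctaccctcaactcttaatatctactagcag
PAC and RRPE stood beside each other in MAK16, with 1 match each. DDR2 held 3 STRE, and XBP1 and GRE1 held 0 in this window. PAC was found in 94.4 percent and RRPE in 85.6 percent of the 90 assembly factor promoters, against 17.8 and 14.1 percent of 6001 promoters. STRE was found in 80 percent of the 40 general stress promoters, against 19.2 percent of all. RRPE was also in 80 percent of the 25 translation factor promoters, and in 13.8 percent of those of the 138 ribosomal protein genes. Such matches describe the letters in these windows only.

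Proteasome genes fell to a lesser degree. Of 34 tested, 23 fell and 0 rose, with a median of -0.51. PRE1, a subunit of the catalytic core, went from 11.39 and 11.52 to 10.44 and 10.39 and fell by 1.04 ± 0.10. RPT6, an ATPase of the regulatory particle, changed by -0.96 ± 0.11, SCL1 by -0.82 and RPN11 by -0.80, the last not called without aged replicate 1 (adjusted p = 0.0529). With 1 aged library left out, 5 fell without aged replicate 1 and 7 without aged replicate 2. Under quantile normalization 18 fell and 2 rose. With the length and GC correction PRE1 changed by -0.61 and SCL1 by -0.51.

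Genes of the general stress response rose in greater number than they fell. Of 40 tested, 23 rose and 5 fell, with a median of 0.79. DDR2, a small multistress protein, went from 4.21 and 4.35 to 7.54 and 7.54, a rise of 3.26 ± 0.20 (9.59-fold, adjusted p = 0.00117). XBP1, a repressor of cell cycle genes under stress, went from 5.79 and 5.09 to 8.68 and 8.52 and rose by 3.16 ± 0.27. GRE1 rose by 2.21 ± 0.27 and FMP45 by 2.08 ± 0.34. The small heat shock genes HSP12 and HSP26 rose by 1.47 ± 0.27 and 1.41 ± 0.41. YGP1, HOR7, PNC1, RTC3 and STF2 fell. After correction for length and GC, 19 rose and 5 fell and the median was 0.42, with FMP45 at 1.19, while HOR7 (adjusted p = 0.0514) and PNC1 (0.0539) were not called. With aged replicate 1 left out the counts were 15 and 1, and without aged replicate 2 they were 16 and 1.

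Not all stress genes went this way. HSP30, a plasma membrane stress protein, had the largest fall of any well-expressed gene, from 12.62 and 13.98 to 9.17 and 9.30, a change of -4.06 ± 0.44 on the log2 scale (adjusted p = 0.0023). HSP104, the disaggregase, went from 13.16 and 14.60 to 12.15 and 12.22 and fell by 1.69 ± 0.46. That call was lost without aged replicate 1 (adjusted p = 0.0811), without aged replicate 2 (0.0742) and under quantile normalization (0.104). HSP42 changed by -1.69 ± 0.56 and missed the threshold (adjusted p = 0.0543), but was called with the replicate block (0.0021) and with the length and GC correction (0.0441). Log replicate 2 was the higher log library for all 3 genes, by over 1 on the log2 scale. In WT of the same table HSP30 and HSP104 changed by -2.23 and -2.03. The WT of another table, described below, had HSP30 at 2.62 and 4.09 and HSP104 at 1.48 and 2.08, at 24 h and 48 h. AHA1, an activator of Hsp90, rose by 2.06 ± 0.19, SSA3, an inducible Hsp70, by 1.6 ± 0.14, and HSF1, the heat shock transcription factor, by 1.46 ± 0.23. Of 25 chaperone genes 5 rose and 6 fell, which is near the shares of all features. The list turned with scaling and length: its median was -0.25, but 0.06 under quantile normalization (7 rose and 2 fell), -0.39 under median centring (3 rose and 10 fell) and -0.66 with the length and GC correction (4 rose and 12 fell). With either aged library left out, 3 rose and 1 fell.

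Enzymes of trehalose and glycogen turnover showed no common direction. Of 18 tested, 6 rose and 4 fell, which is near the shares of all features, with a median of 0.15. ATH1, the acid trehalase, went from 7.84 and 7.73 to 9.82 and 9.77 and rose by 2.01 ± 0.11 (adjusted p = 0.00114). GDB1, the glycogen debranching enzyme, rose by 1.74 ± 0.10 and NTH1, the neutral trehalase, by 1.20 ± 0.16. TPS2, a phosphatase of trehalose synthesis, fell by 1.12 ± 0.16. Corrected for length and GC, the median was -0.21, with 5 rising and 9 falling, GDB1 at 0.83 and NTH1 at 0.78, and without aged replicate 1 or 2, 4 rose and 1 fell.

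Oxidative stress enzymes also moved in both directions, with 10 of 28 rising and 11 falling. YHB1, the flavohaemoglobin that detoxifies nitric oxide, went from 12.89 and 12.79 to 9.83 and 9.91 and fell by 2.97 ± 0.10 (7.86-fold, adjusted p = 0.00114). The abundant cytosolic enzymes SOD1 and TSA1 changed by -1.05 ± 0.12 and -1.25 ± 0.12. SRX1, sulfiredoxin, rose by 2.69 ± 0.23, and CTA1, the peroxisomal catalase, by 1.82 ± 0.21. OYE3 rose by 1.64 ± 0.21, a call lost with the length and GC correction (adjusted p = 0.0633). Without aged replicate 1 or 2, 6 rose and 7 fell. The median was -0.18 and turned to 0.11 under quantile normalization. With the length and GC correction it was -0.10, with 6 rising and 10 falling, and SRX1 was at 1.68.

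Autophagy genes rose in 14 of 25 cases and fell in 0, with a median of 0.63. YLR312C, named ATG39 in the RefSeq annotation and a receptor for the nuclear envelope, went from 6.25 and 6.38 to 8.90 and 8.68 and rose by 2.48 ± 0.16. The mitophagy genes ATG33 and ATG32 rose by 2.38 ± 0.20 and 1.56 ± 0.29. ATG15, a vacuolar lipase, had 96 and 7 reads in the log libraries and 413 and 409 in the aged ones. Its rise of 3.52 ± 0.99 was not called without aged replicate 1 (adjusted p = 0.0746) or 2 (0.0716). The list held 7 and 6 rising genes without aged replicate 1 and 2. Under quantile normalization 12 rose and 2 fell, with a median of 0.29.

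Glycolytic genes fell while genes for use of non-fermentable carbon rose. Of 19 glycolytic genes 12 fell and 3 rose, with a median of -0.87. TPI1, triose phosphate isomerase, went from 15.13 and 15.41 to 13.24 and 13.13 and fell by 2.09 ± 0.17. FBA1, aldolase, fell by 1.98 ± 0.19. The risers were minor isozymes: PDC6, pyruvate decarboxylase, by 2.25 ± 0.29, PYK2, pyruvate kinase, by 1.62 ± 0.38, and PDC5. PYK2 lost its call without aged replicate 1 (adjusted p = 0.0565) or 2 (0.0644). The median depended on the setting: it was -0.38 under quantile normalization, with 10 falling, and -1.63 with the length and GC correction, with 15 falling. The corrected values of PDC6, PYK2 and PDC5 were 1.49, 0.88 and 0.73.

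Of 20 genes of gluconeogenesis and the glyoxylate cycle, 16 rose and 2 fell, with a median of 2.01, and 13 rose and 1 fell without either aged library. FBP1, fructose-1,6-bisphosphatase, had 12 and 10 reads in log and 246 and 244 in aged cells, a rise of 4.02 ± 0.24 (16.2-fold, adjusted p = 0.00114). PCK1, of the first committed step of gluconeogenesis, rose by 2.82 ± 0.14. JEN1, the lactate and pyruvate permease, went from 6.00 and 5.62 to 9.16 and 9.07 and rose by 3.30 ± 0.19. SIP4, an activator of gluconeogenic genes, rose by 3.43 ± 0.22. YAT1, a carnitine acetyltransferase, rose by 3.12 ± 0.39, but by 0.75 with the length and GC correction. ADH2 and CIT2 fell, with changes of -1.0 ± 0.12 and -0.94 ± 0.19, and ADH2 was at -1.83 with the correction.

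Hexose transporter genes rose in 14 of 19 cases, with a median of 1.28. HXT5, a transporter made during slow growth, went from 5.33 and 5.67 to 8.79 and 8.63 and rose by 3.21 ± 0.19 (9.24-fold, adjusted p = 0.00114). RGT2, a glucose sensor, rose by 2.06 ± 0.35, or by 1.35 with the length and GC correction. HXT14 had 3 and 4 reads in log and 43 and 32 in aged cells, a ratio of 7.96 with an interval of 3.68 to 20.5. HXT13* rose by 1.78 ± 0.40 and lost its call under quantile normalization (adjusted p = 0.139), with the length and GC correction (0.0514) and without aged replicate 1 (0.148) or 2 (0.0815). The number of rises depended on the setting: it was 7 under quantile normalization, with a median of 0.39, 8 with the length and GC correction, and 5 without either aged library.

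Peroxisomal fatty acid oxidation followed the gluconeogenic genes. Of 18 genes 13 rose and 2 fell, with a median of 0.91. POT1, the thiolase, had 5 and 6 reads in log and 127 and 129 in aged cells and rose by 4.08 ± 0.38. CAT2, the main carnitine acetyltransferase, rose by 2.42 ± 0.21 and POX1, the acyl-CoA oxidase, by 2.16 ± 0.26. Rises numbered 6 without aged replicate 1 and 7 without aged replicate 2, and falls 0 in both cases. With the replicate block 12 rose and 1 fell.

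The TCA cycle and the respiratory chain rose in part. SDH1, the flavoprotein of succinate dehydrogenase, went from 7.79 and 6.81 to 10.34 and 10.33 and rose by 3.04 ± 0.32 (8.22-fold, adjusted p = 0.00221). In contrast IDH1 and IDH2, the subunits of NAD-dependent isocitrate dehydrogenase, changed by -1.36 ± 0.12 and -1.29 ± 0.11. CIT3, a minor citrate synthase, rose by 1.37 ± 0.24 and lost its call without aged replicate 1 (adjusted p = 0.062) or 2 (0.0612). Of 17 TCA cycle genes 7 rose and 3 fell, with a median of 0.40, and 3 rose without either aged library. The median was 0.07 with the length and GC correction and 0.25 under median centring, and 11 rose under quantile normalization. Of 34 respiratory chain genes 17 rose and 1 fell, with a median of 0.34, and 9 rose without either aged library. The median was 0.60 with the length and GC correction, with 24 rising and 0 falling, and 0.19 under median centring, with 14 rising. CYT1, cytochrome c1, went from 7.76 and 7.14 to 10.13 and 9.89 and rose by 2.56 ± 0.23. NDE2 rose by 2.71 ± 0.25, QCR2 by 2.02 ± 0.27 and ATP1 by 1.5 ± 0.21. Corrected for length and GC, SDH1 rose by 2.02 and ATP1 by 0.90.

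Phosphate starvation genes fell from a high level in log phase. PHO11* and PHO12*, secreted acid phosphatases that share most of their sequence, had levels of 11.79 and 11.79 and of 11.79 and 11.70 in the log libraries. In aged cells they were at 8.96 and 8.66 and at 8.81 and 8.77, changes of -2.98 ± 0.14 and -2.95 ± 0.10. SPL2, which restrains low-affinity phosphate uptake, went from 9.55 and 9.91 to 7.06 and 6.87 and fell by 2.76 ± 0.18. VTC3, of the polyphosphate polymerase, fell by 2.16 ± 0.10. PHO84, the high-affinity transporter, changed by -1.45 ± 0.12 and PHO5, the main acid phosphatase, by -1.63 ± 0.10. In WT all 6 of these genes were lower in log phase than in log-phase hst3 hst4, PHO84 at 11.10 against 13.63 and 13.66. Of 21 genes 11 fell and 3 rose, with a median of -1.13. With 1 aged library left out, 10 fell in both cases, and 0 or 1 rose without aged replicate 1 or 2. The Pho4 site CACGTG stood in 42.9 percent of the 21 promoter windows of the list, against 3.27 percent of all.

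Iron genes showed no common direction, with 11 of 28 rising and 6 falling. HMX1, haem oxygenase, went from 6.35 and 6.05 to 8.81 and 8.72 and rose by 2.56 ± 0.17. FIT2, a cell wall mannoprotein that holds siderophores, fell by 1.41 ± 0.23. The iron regulators AFT1 and AFT2 rose by 1.36 ± 0.32 and 1.17 ± 0.22, and both lost their calls without aged replicate 1 (adjusted p = 0.0673 and 0.0545) or 2 (0.0521 and 0.0524). Without either aged library 2 rose and 2 fell. The median of 0.32 became -0.02 with the length and GC correction, 0.15 under quantile normalization and 0.18 under median centring.

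Amino acid synthesis rose in 28 of 53 genes and fell in 8. ARG3, ornithine carbamoyltransferase, had 26 and 13 reads in log and 298 and 322 in aged cells, a rise of 3.61 ± 0.20 (12.2-fold, adjusted p = 0.00114). ARG1 rose by 2.42 ± 0.18. The sulfur assimilation genes MET10 and MET2 rose by 2.23 ± 0.12 and 1.98 ± 0.20. WT also had higher ARG3 and ARG1 in aged cells, by 4.18 and 3.04. Catabolic genes for arginine and proline were among the largest rises. CAR2, ornithine transaminase, went from 7.96 and 6.19 to 10.39 and 10.24 and rose by 3.23 ± 0.56. PUT1, proline oxidase, rose by 2.97 ± 0.14. Synthesis genes that rose numbered 17 without aged replicate 1 and 15 without aged replicate 2, and 4 fell in both cases. After correction for length and GC, 19 rose and 13 fell, the median of 0.63 became 0.18, and CAR2 and MET2 were at 1.80 and 1.26.

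Within NAD synthesis, which supplies the cofactor of sirtuins, 5 of 15 genes rose and 5 fell. The risers BNA1 to BNA5 belong to the kynurenine route from tryptophan. BNA2, its first enzyme, went from 6.12 and 5.29 to 8.85 and 8.86 and rose by 3.15 ± 0.30 (8.90-fold, adjusted p = 0.00186). In the WT pair of the same table BNA2 changed by 3.45. BNA5 rose by 1.14 ± 0.13 and BNA3 by 0.82 ± 0.11, while BNA7 of the same route fell by 1.28 ± 0.16. PNC1, NPT1, NRK1 and TNA1, of salvage and uptake, fell, PNC1 by 0.70 ± 0.18. With the replicate block BNA1 (adjusted p = 0.0982) and NRK1 (0.0559) were not called, and with the length and GC correction NRK1 (0.387) and PNC1 (0.0539) were not, with 6 rising and 3 falling. Without aged replicate 1 the counts were 2 and 2, with BNA3 at an adjusted p of 0.0566, and without aged replicate 2 they were 3 and 1.

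Ergosterol synthesis stayed near the background, with 6 of 23 genes rising and 4 falling. HMG1 and HMG2, the HMG-CoA reductases, rose by 0.98 ± 0.21 and 0.69 ± 0.15, ERG5 by 0.97 ± 0.11 and ERG7 by 0.70 ± 0.21. Of these, HMG1, HMG2 and ERG7 lost their calls without either aged library, with adjusted p from 0.0517 to 0.145, and HMG2 and ERG7 with the length and GC correction (0.0548 and 0.461), which put HMG1 at 0.49. The list median of -0.10 became 0.15 under quantile normalization. Under quantile normalization 10 rose and 3 fell, and with the replicate block 7 and 2. Without either aged library 1 gene rose and 0 fell.

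Cell wall genes rose. PIR3, an O-glycosylated wall protein, went from 8.31 and 8.31 to 11.96 and 11.92, a rise of 3.63 ± 0.10 (12.4-fold, adjusted p = 0.00104). GSC2, the stress-induced glucan synthase, rose by 2.45 ± 0.10. The abundant wall proteins SED1 and CCW14 rose by 2.65 ± 0.21 and 2.70 ± 0.29, and SED1 reached levels of 15.82 and 15.68. Of 24 genes 17 rose and 2 fell, with a median of 1.14, and 14 rose without either aged library. Further members of the largest rises outside the lists were YPS3, a surface protease (3.11 ± 0.34), NCA3 of the SUN family (3.67 ± 0.15) and VRP1, verprolin of the actin cytoskeleton (2.90 ± 0.49). VRP1 rested most on log replicate 2, with 65 reads there against 287 in log replicate 1. Corrected for length and GC, VRP1 was at 1.26 and YPS3 at 1.84.

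**Figure D4:**
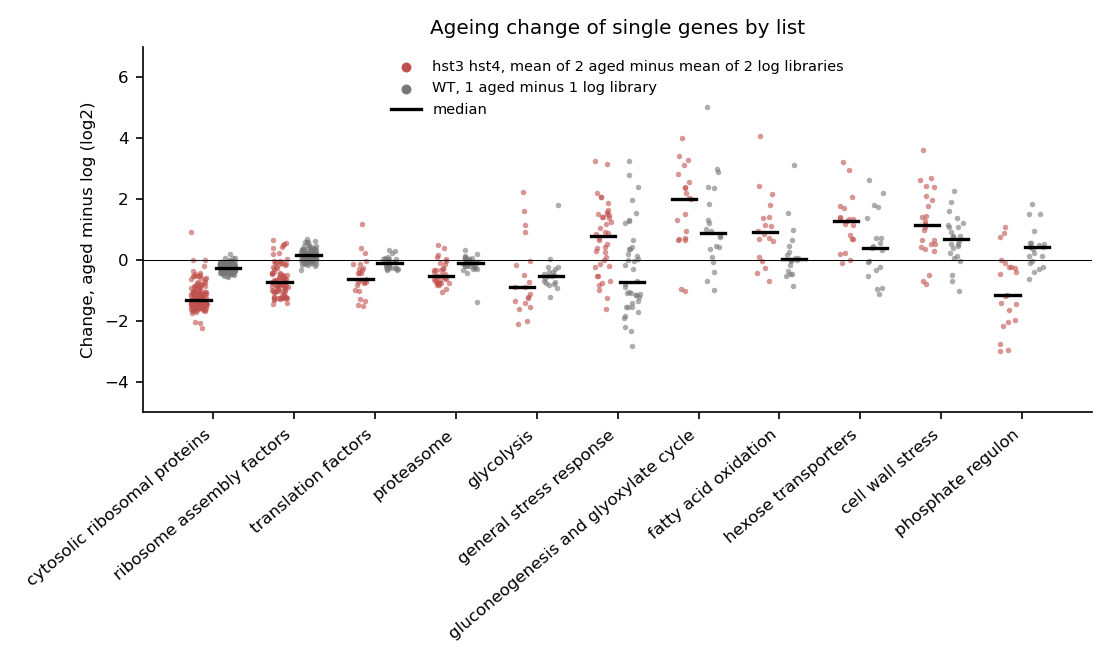
Ageing change of single genes (log2, aged minus log) in 11 lists, with hst3 hst4 in red (means of 2 libraries), WT in grey (1 library each) and black bars at the medians. The hst3 hst4 medians lie lowest for cytosolic ribosomal proteins (-1.31) and the phosphate regulon (-1.13) and highest for gluconeogenesis and the glyoxylate cycle (2.01).

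Genes that a/α diploids normally hold down rose as well. Of 24 haploid-specific and pheromone-induced genes 16 rose and 1 fell (RME1), with a median of 1.15, and 12 and 9 rose without aged replicate 1 and 2. TEC1, a transcription factor of filamentous growth, went from 7.08 and 6.76 to 9.45 and 9.36 and rose by 2.49 ± 0.16. FUS1, of cell fusion, had 52 and 22 reads in log and 199 and 200 in aged cells and rose by 2.1 ± 0.26. FIG1 rose by 2.30 ± 0.29 and FUS3, the pheromone MAP kinase, by 1.81 ± 0.30. In WT the list median was 0.50, with FIG1 at 4.47 (1 and 16 reads), FUS1 at 3.81 (7 and 71 reads) and FUS3 at -0.46. Under quantile normalization 11 rose and 2 fell, with a median of 0.54. The pheromone response element TGAAACA stood in 54.2 percent of these 24 promoter windows, against 6.13 percent of all.

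Markers of the single mating types did not follow as a group. Of 7 a-specific genes 1 rose, the pheromone gene MFA1 (1.08 ± 0.31), whose call was lost under quantile normalization (adjusted p = 0.60), under median centring (0.0557) and without aged replicate 1 (0.0864) or 2 (0.269). STE2, the α-factor receptor, had 238 and 177 reads in log and 292 and 293 in aged cells, a change of 0.05 ± 0.15. MFA2, STE6, BAR1, AGA2 and ASG7 were not called. With the length and GC correction AGA2 was called at 1.5 (adjusted p = 0.0208) and MFA1 was at 1.70, while under quantile normalization MFA2 was called at -1.41 (0.0133). Of 4 α-specific genes, SAG1, the agglutinin, rose by 1.24 ± 0.25 (adjusted p = 0.053 without aged replicate 1), and MF(ALPHA)2 fell by 2.42 ± 0.24 from 161 and 115 to 35 and 35 reads. MF(ALPHA)1 held 375 and 197 reads in log and 285 and 293 in aged cells, against 4 and 37 in WT. STE3 held 181 and 136 reads in log and 195 and 173 in aged hst3 hst4 cells. Under quantile normalization MF(ALPHA)1 was called at -0.56 (adjusted p = 0.0425). Together the 7 a-specific genes took 0.0124 to 0.0143 percent of reads in log and 0.0183 to 0.0196 percent in aged cells, and the 4 α-specific genes 0.0151 to 0.0173 and 0.0216 to 0.0224 percent. The part of these markers in the other results was not tested.

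Meiosis and sporulation genes came up from very few reads. SPS2, of the spore wall, had 4 and 1 reads in log and 124 and 125 in aged cells, a ratio of 37.0 with a counting interval of 15.6 to 114.9. CDA2, a chitin deacetylase of spores, had 1 and 1 against 53 and 60 reads, a ratio of 42.0 with an interval of 11.4 to 350.7. OSW1 had 8 and 2 against 56 and 39 reads, and was not called without aged replicate 1 (adjusted p = 0.0708). CRR1, a glycosylase of the spore wall, went from 6.25 and 6.19 to 9.15 and 9.06 and rose by 2.88 ± 0.14. Of 40 genes 26 rose and 0 fell, with a median of 1.03, and IME1, the master regulator, rose by 0.86 ± 0.25. The WT median of this list was 0.99. Under quantile normalization 15 rose and 4 fell, with a median of 0.53, and without aged replicate 1 and 2, 13 and 11 rose.

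Of 381 genes within 25 kb of a chromosome end, 157 rose and 39 fell, with a median of 0.69. Near-identical copies are common there, and 187 of the 381 carry the mark. PAU4*, a seripauperin, went from 8 and 4 to 174 and 156 reads. PAU19* had 4 and 1 against 38 and 25 reads and YMR315W-A 4 and 0 against 27 and 29, with ratios of 9.36 (interval 3.80 to 29.8) and 10.4 (3.84 to 39.5). YHR214W* had 16 and 1 against 80 and 70 reads. The calls of YHR214W* (adjusted p = 0.0914 and 0.0793 without aged replicate 1 and 2) and PAU19* (0.0541 without aged replicate 1) rest on both aged libraries. Under quantile normalization 94 rose and 48 fell, with a median of 0.15, and without aged replicate 1 and 2, 67 and 69 rose and 16 and 18 fell.

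Most daughter-specific genes fell. DSE1 and DSE2, of cell separation, went from 11.00 and 11.27 to 8.25 and 8.27 and from 11.14 and 11.12 to 8.83 and 8.88, changes of -2.88 ± 0.13 and -2.28 ± 0.10. SCW11, whose promoter drives the Cre of the programme, changed by -1.94 ± 0.12 and DSE4 by -1.62 ± 0.10. Of 12 such genes 8 fell and 1 rose, with a median of -1.10. The riser was CTS1, the chitinase of daughter separation, at 1.23 ± 0.15, and the summed share of reads of the list was 0.256 and 0.229 percent in log and 0.218 and 0.216 percent in aged cells. With the replicate block 10 fell and 2 rose, and with the length and GC correction 10 fell and 1 rose, with a median of -1.71. In WT the list had a median of -1.23 and CTS1 changed by -1.25. UBC9, a target of the Cre, fell by 1.94 ± 0.15, while CDC20, the other target, changed by 0.19 ± 0.17.

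Among the strain markers URA3 had 1057 and 776 reads in log and 611 and 631 in aged cells, and TRP1 874 and 609 against 1148 and 1096, while WT had 0 to 4 reads of both. URA3 fell by 1.01 ± 0.17, with adjusted p of 0.0991 and 0.107 without aged replicate 1 and 2. MET17 rose by 1.97 ± 0.10 and ADE2 by 1.21 ± 0.11. LEU2, HIS3 and LYS2 rose by 0.79 ± 0.15, 0.66 ± 0.12 and 0.71 ± 0.18 and TOM70 fell by 0.66 ± 0.11. Without either aged library LEU2, HIS3, LYS2 and TOM70 were not called, with adjusted p from 0.0554 to 0.147, and HIS3 and LYS2 also lost their calls with the length and GC correction (0.455 and 0.612), which put LEU2 at 0.49. HO was not called.

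Cell cycle lists did not move as blocks. Of 30 G1/S genes 10 rose and 8 fell, with SVS1 at 2.13 ± 0.24, GIC2 at 1.55 ± 0.16, EXG2 at 1.49 ± 0.13 and the G1 cyclin gene CLN2 at 1.64 ± 0.40. CLN2 went from 9.0 and 7.77 to 10.05 and 10.01 and lost its call without aged replicate 1 (adjusted p = 0.0586) or 2 (0.0561). Among the members that fell were the replication genes POL30, RFA1, RFA3 and RAD27 and the cohesin gene SMC3. The call of RAD27 was lost with the replicate block (adjusted p = 0.104), and those of POL30, RFA3 and RAD27 with the length and GC correction (0.0542, 0.173 and 0.128), under which 9 rose and 5 fell. With aged replicate 1 left out the counts were 4 and 1, and without aged replicate 2 they were 4 and 2. Of 20 G2/M genes 7 rose and 5 fell. MOB1, of mitotic exit, rose by 1.45 ± 0.30, while the mitotic cyclin genes CLB1 and CLB2 changed by -1.18 ± 0.14 and -0.50 ± 0.13. CLB2 was not called with the length and GC correction (adjusted p = 0.0959). CHS2, the septum chitin synthase, rose by 1.08 ± 0.22 and was not called without aged replicate 1 (adjusted p = 0.0529) or 2 (0.056), and was at 0.58 with that correction. Rises numbered 3 without aged replicate 1 and 2 without aged replicate 2, and falls 2 in both cases. The median of the G1/S list, 0.14, became -0.08 under quantile normalization and 0.05 with the length and GC correction.

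Further large falls lay outside the lists. YOL014W, of unknown function, went from 9.67 and 10.17 to 6.24 and 6.42 and fell by 3.59 ± 0.20. RGI1, a protein of respiratory growth, changed by -2.61 ± 0.20 and TDA6 by -2.27 ± 0.12. In WT the same genes changed by -3.58, -3.19 and 0.16.

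The ageing change of hst3 hst4 was then compared with that of WT in the same table, as the difference between both changes. With 1 WT library per age, the spread of WT was taken to equal that of the hst3 hst4 groups. A batch label is given for the WT libraries alone, so strain and batch cannot be told apart. The change was higher in hst3 hst4 for 284 features (4.29 percent) and lower for 399 (6.03 percent) of 6613. With the replicate block the counts were 490 and 300. They rest on few libraries: without aged replicate 1 or 2 both counts were 0 (1155 and 1108 features at an unadjusted p under 0.05), and without log replicate 1 or 2 they were 2140 and 1697 or 1783 and 1610.

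Many growth and phosphate genes had a lower ageing change in hst3 hst4 than in the WT pair of the same table. In the WT of another table, described below, the medians of assembly factors and phosphate genes also fell. The change was lower in hst3 hst4 for 78 of 138 ribosomal protein genes, whose WT median was -0.25, and for 43 of 90 assembly factors, whose WT median was 0.16. It was lower for 11 of 21 phosphate genes, PHO84 at -3.29 ± 0.20 (adjusted p = 0.016), SPL2 at -3.21 ± 0.30, PHO5 at -3.15 ± 0.18 and PHO11* at -2.75 ± 0.23. FIT2 differed by -3.84 ± 0.39 and MF(ALPHA)1 by -4.06 ± 0.31, and both were higher in aged than in log WT. In WT MF(ALPHA)1 rested on 4 and 37 reads. The spacers had values of -5.36 and -5.19, as given above. Without aged replicate 1 or 2 none of the 16 differences named here or below was called, with adjusted p from 0.0984 to 0.232.

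Carbohydrate storage and stress genes were among the higher differences. For 12 of 18 trehalose and glycogen genes and 13 of 40 general stress genes the change was higher in hst3 hst4, and for 0 it was lower. In WT their medians were -1.17 and -0.73, but 1.13 and 2.20 at 24 h in the WT of another table, described below. CTT1, the cytosolic catalase, was at 10.57 in log and 8.26 in aged WT, whereas hst3 hst4 had 7.94 and 8.01 in log and 8.55 and 8.74 in aged cells, a difference of 2.98 ± 0.22. PGM2, phosphoglucomutase, was at 12.54 and 9.73 in log and aged WT and at 9.79, 9.60, 9.71 and 9.71 in the hst3 hst4 log and aged libraries, a difference of 2.82 ± 0.20. The log WT library was thus the high one for both. IGD1, an inhibitor of glycogen debranching, differed by 3.23 ± 0.24, MTH1, of glucose repression, by 3.13 ± 0.44, SDS24 by 2.85 ± 0.44, RAD16 by 2.83 ± 0.51 and SDH1 by 2.70 ± 0.56. YCL042W differed by 2.93 ± 0.22 and overlaps the stress gene GLK1 in part. HSP30 and HSP104 were also high in log WT, at 13.76 and 14.67. The part of this single library in the differences was not tested.

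**Figure D5:**
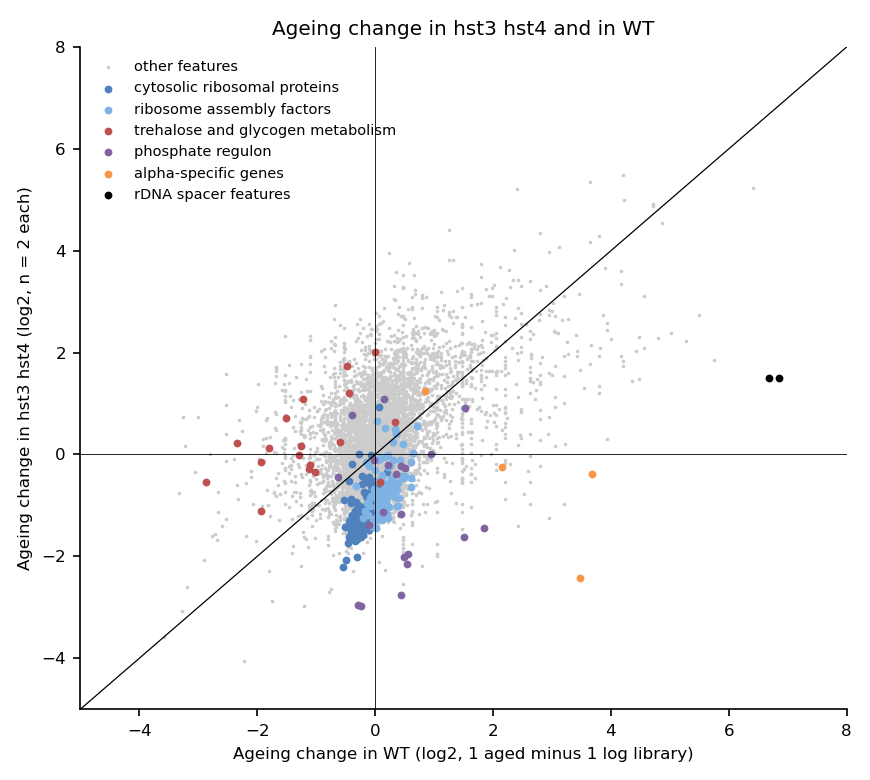
Ageing change of each feature in hst3 hst4 (vertical, log2, n = 2 per group) and in WT (horizontal, log2, n = 1 per group), with 6 lists coloured and the line of equal change. The rDNA spacer features lie far to the right at a change of 1.5 in hst3 hst4, most ribosomal protein genes lie below the line, and most trehalose and glycogen genes lie above it.

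WT mothers of another table of the series, normalised separately, gave a further set of values that was not tested against these. It holds cells of 24 h and of 48 h, each given here against log. For ribosomal protein genes the medians were -0.60 at 24 h and -1.18 at 48 h, and in aged hst3 hst4 cells -1.31. Assembly factors had -0.99 and -1.68 there and -0.72 here, histones -0.67 and -1.29 against -1.25, and the phosphate regulon -0.72 and -1.57 against -1.13. The general stress list had 2.20 and 3.22 there and 0.79 here, and gluconeogenesis 1.88 and 2.61 against 2.01. The DNA damage response had 0.28 and 0.64 there and 0.52 here, and the 2 spacer features 5.21 and 5.02 against 1.5. The WT pair of the hst3 hst4 table had other signs for assembly factors (0.16), the phosphate regulon (0.43) and general stress (-0.73). Its signs were the same for ribosomal proteins (-0.25), histones (-0.38), gluconeogenesis (0.88), the DNA damage response (0.11) and the spacers (6.77). The cause of this was not tested.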

How the data were processed

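The log2 values per feature were deposited by the authors, already scaled, but the sources used here do not name the counting program, its strand setting or the scaling method. Per the submitters' processing notes, the tools were Trim Galore 0.6.6 for trimming and HISAT2 2.1.0 for alignment, and the genome was R64. The library kit keeps strand, per the series' design text. Low values lay on whole reads within 0.02 when each lowest value was read as a count of 0 entered as 0.9, and 100 percent of low values were whole. Depth was 3964134 to 8557984 recovered reads per library. Of 6664 genes, 455 share 50-base stretches or overlap another gene on the same strand over more than 30 percent of their length and are marked *.

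Features above the lowest value in at least 2 libraries were tested (6613, with 53 left out) with limma 3.58.1 (R 4.3.3; lmFit, eBayes with a variance trend) on the deposited log2 values, and the 6 libraries formed 4 groups, which left 2 residual degrees of freedom. Benjamini-Hochberg adjustment covered all features tested, and features were called at an adjusted p under 0.05. The fit was also run on simulated data with independent noise and no lane, length or GC effect. That run cannot show how the fit behaves under the length and GC trends seen here. Replicate numbers pair the libraries because the labels tie them to sequencing lanes, and the correlation of deviations of same-numbered libraries was 0.0219. Changes were also computed within each lane.

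The members and the 37 gene lists, of which 36 had members in the table, were chosen with earlier results of these data known. Named genes were the 12 largest rises and 12 largest falls among called, non-overlapping genes with a mean level above the 25th percentile (7.19). Up to 4 called members per list with the largest change, all members of the H3K56, sirtuin, histone, mating-type, marker and spacer lists, and the 8 largest called differences from WT in each direction were added. Other genes in the text were chosen after their values were seen. Alternatives were quantile normalization, median centring, no filter, only genes above the 25th percentile, no variance trend, only the groups compared, the replicate block, voom on recovered reads, leaving out each hst3 hst4 library, and, added after the data were seen, a loess correction for gene length and GC content (span 0.5). Intervals of read ratios are exact binomial intervals at 95 percent and cover counting error only. A few items are not reported here.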

Additional observations from a re-analysis of the deposited data

Results flagged for a closer look

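Of the 193 named genes, 65 differed in their ageing change between hst3 hst4 and WT by the test of the difference, in limma with Benjamini-Hochberg adjustment, and 16 of them are given here. Higher in hst3 hst4, on the log2 scale, were IGD1 (3.23), MTH1 (3.13), CTT1 (2.98), YCL042W (2.93), SDS24 (2.85), RAD16 (2.83), PGM2 (2.82) and SDH1 (2.70). Lower were IGS2-1AS (-5.36), IGS1-2AS (-5.19), MF(ALPHA)1 (-4.06), FIT2 (-3.84), PHO84 (-3.29), SPL2 (-3.21), PHO5 (-3.15) and PHO11* (-2.75). They were chosen as the 8 largest called differences in each direction among genes above the 25th percentile of levels, and each rests on 1 log and 1 aged WT library.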

How the results depend on the processing

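Counts of genes that rose and fell stayed within 1.5 times of 1894 and 1558 under the other scalings, filters and designs, with the exception of leaving out an aged library. Leaving out 1 library gave 790 to 2677 rising and 651 to 2118 falling genes. With a log library left out the spread came from the aged pair alone. No called gene was called in the opposite direction under any alternative but the length and GC correction, where 14 genes were, with or without the block. Changes of sign without a call were not counted. Of the 161 called named genes 33 lost their call without aged replicate 1 and 29 without aged replicate 2, 9 without the variance trend, 8 with the length and GC correction, 7 under quantile normalization, 3 under median centring and 2 with the replicate block. The counts of differences from WT, 284 higher and 399 lower, were 0 and 0 without the variance trend (1948 at an unadjusted p under 0.05). The higher count was 490 with the replicate block and 574 with the length and GC correction and the block. Leaving out 1 library gave 0 to 2140 higher and 0 to 1697 lower differences. Values with the replicate block stand beside the genes whose call it changed and beside some of the lists. Counts of other lists moved with the block too: 1 proteasome gene rose and 20 fell, and 14 respiratory chain genes rose. In the general stress list 24 rose and 7 fell. The block changed no other call of a gene named in the text as rising, falling or not called. Of the 32 named genes not called, leaving out log replicate 1 called 13 and leaving out log replicate 2 called 10. With only genes above the 25th percentile of levels, weakly expressed members dropped out, and the rises numbered 4 in the meiosis list, 5 in the haploid-specific and in the hexose transporter list, 6 in fatty acid oxidation, 9 in gluconeogenesis, 13 in general stress and 63 near chromosome ends. The cause of these changes was not tested. With 3964134 reads in log replicate 2, changes of genes with fewer than about 50 reads are the least precise.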
